A study of Mus musculus and Oryctolagus cuniculus and Sus scrofa with 20 samples.

Results

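Small RNA libraries of mammalian testis hold, beside miRNAs and piRNA-sized reads, a class of reads of exactly 19 nt. These 19-nt tags are described here; a tag is a distinct read sequence, and its reads are the number of times it was sequenced. They were chosen by length and by their own counts: every tag of 19 nt was taken whose first 18 nt were not those of a mouse mature miRNA or of 1 of 8 tRNA 5′ ends. Summed over 20 libraries they number 568719 of 26479743 tags, and 459653 different sequences. In 1 library they number 3286 (CRISPR SSC) to 68613 (rabbit day 110). Their number, and its relation to the tags of 18 and 20 nt, is therefore a description with no test. Their relation to the 25 to 32 nt tags of the same library was not used to choose them.

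Each library is the only one of its group. The mouse libraries of strain C57BL/6, all wild type, were made from cultured spermatogonia stem cells (SSCs), from pre-leptotene and leptotene spermatocytes of postnatal day 9, zygotene spermatocytes of day 13, pachytene spermatocytes and round spermatids of day 25 (round sperms in some labels), and mature sperm. Whole testes of wild-type animals gave 8 rabbit libraries (day 10, 30, 60, 70, 80, 90, 110 and 180), to whose RNA an exogenous spike-in was added, 1 adult pig library and 1 adult rat library. The last 3 libraries are a control SSC line and 2 lines without miR-741, made with TALEN or CRISPR plasmids, on a C57BL/6 x DBA2 F1 background with an actin-EGFP transgene, from a mouse of day 15. Knockout lines came from single picked colonies and SSCs were plated on MEF feeder cells, so these libraries can hold feeder RNA. The labels do not say how many animals a library holds, and a testis holds somatic cells and germ cells of several stages.

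piRNAs are small RNAs of the germline, most of them starting with U (T in the sequences here), which guide PIWI proteins to complementary RNA. A PIWI protein with slicer activity cuts its target between the bases that lie opposite guide bases 10 and 11. The piece that begins at the cut can be trimmed into another piRNA, while the piece before the cut is left over. By this geometry a 19-nt piece that ends at a cut has its last base opposite guide base 11 and its first base opposite guide base 29, with 10 guide bases before the complement.

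Cases with an opposite tag are shown first, from among the 5 tags with most reads in rat testis and in rabbit testis of day 180. Each 19-nt tag stands above the most-read 25 to 32 nt tag of the same library that pairs with all of its bases at that place. The capital of the short tag is its last base, and the capitals of the long tag are bases 11 to 29, which pair with it.
Rat 19-nt tag with 853 reads: atgggctgtagaatttctC
Its opposite tag with 381 reads: ttctgcccgaGAGAAATTCTACAGCCCATg
Rat 19-nt tag with 518 reads: gcctcttttagacatcaaC
Its opposite tag with 96 reads: taagctcaagGTTGATGTCTAAAAGAGGC
Rat 19-nt tag with 377 reads: atgggctgcagaatttctC
Its opposite tag with 12 reads: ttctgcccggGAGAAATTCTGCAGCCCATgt
Rabbit day 180 19-nt tag with 2143 reads: ctctctcactgtccactcT
Its opposite tag with 1 read: tttgacaggcAGAGTGGACAGTGAGAGAGt
All 4 opposite tags begin with T, and none of the 4 short tags does. Counting every 25 to 32 nt tag that pairs with the last 15 bases at this place, the rat tags had 56, 47 and 11 opposite tags and the rabbit tag 9. The short tag had more reads than the opposite tag shown in all 4 pairs. Since the short tags were chosen for their high reads, this is a description only. Summed over all its opposite tags, however, the first rat tag (853 reads) had 1044 reads opposite it, while the other 3 sums lay below the reads of the short tag, at 372, 47 and 16.

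In round spermatids, 4 of the 5 most-read tags had no opposite tag of this kind. They are shown with their first base in capitals, since all 4 begin with T.
Round spermatid 19-nt tag with 16276 reads: Taagactgactaattgttt
Round spermatid 19-nt tag with 5486 reads: Taccatcgggcgatgatac
Round spermatid 19-nt tag with 4840 reads: Tgtggaattgctagtatac
Round spermatid 19-nt tag with 4285 reads: Taggaaatgttccttgtgc
The first 2 are also the tags with the second and the third most reads in pachytene spermatocytes, at 6336 and 5841. The other tag of the 5, tgttacaaagtctaactaA with 4510 reads, had 1 opposite tag, tgaaattccaTTAGTTAGACTTTGTAACA, with 2 reads. The other 3 of the 5 most-read tags in pachytene spermatocytes, and 1 each from rabbit day 180 and rat, had no opposite tag either; they are shown in the same way, with the first base in capitals.
Pachytene 19-nt tag with 12777 reads: Aagaaagattgcaagaact
Pachytene 19-nt tag with 3315 reads: Taaaagacgagtgagaact
Pachytene 19-nt tag with 2488 reads: Tgagagcctcgttctgccc
Rabbit day 180 19-nt tag with 1023 reads: Tactcaagacagtggcaat
Rat 19-nt tag with 464 reads: Taagactttgtattgagag
The first of them also led zygotene spermatocytes (15688 reads) and matches only mt-Ts2, a mitochondrial serine tRNA, among mouse transcripts; it begins with A and the other 4 with T. The rule removes 8 nuclear tRNA ends only, and miRNAs that the table of mature sequences lacks also remain. A tag that matches 52 rRNA genes (5S rRNA, part of the large ribosomal subunit) took 47.4% of the 19-nt reads in control SSCs, 32.6% in TALEN SSCs and 63.9% in CRISPR SSCs.

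Libraries ranged from 597732 (CRISPR SSC) to 25908109 reads (mature sperm), and the 25 to 32 nt share of reads from 21.2% (pre-leptotene) to 83.7% (rat). Intervals here are 95% intervals and cover counting error only. Of the cell type markers in the miRNA table, miR-449a-5p, of late germ cells, took 0.575% (pachytene), 0.648% (round spermatids) and 4.48% (rat) of miRNA reads, and at most 0.0126% in the other mouse libraries. In rabbit it lay at 0.0182% or less to day 90, then at 0.692% (day 110) and 0.960% (day 180). The gonadal miR-202-5p took up to 0.335% in mouse (zygotene) and 0.463% to 2.10% in whole testis, and the blood marker miR-451a at most 0.1% (mature sperm). Markers miR-34c-5p, miR-143-3p, miR-145a-5p and miR-486a-5p were not analysed here.

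19-nt tags outnumbered tags of 18 and 20 nt most in pachytene spermatocytes, round spermatids, rat testis and rabbit testis of day 110 and day 180. Their ratio to the mean of the 2 neighbouring lengths, over distinct tags, lay between 0.955 and 1.04 in the 4 earliest mouse libraries (1.01 for SSCs, 0.955 for pre-leptotene, 0.986 for leptotene, 1.04 for zygotene). Pachytene spermatocytes had 1.48 (interval 1.47 to 1.49), round spermatids 2.21 (2.19 to 2.24) and mature sperm 1.06. In rabbit the ratio was 1.15 at day 10, 1.37 at day 30, 1.19 at day 60, 1.08 at day 70, 1.08 at day 80 and 1.18 at day 90, against 2.27 (2.25 to 2.30) at day 110 and 2.49 (2.46 to 2.52) at day 180. Rat testis had the highest value, 2.71 (2.66 to 2.75), and pig testis had 1.08. The control, TALEN and CRISPR SSC lines had 1.00, 1.03 and 0.995, with intervals that all include 1, but 1.52, 1.22 and 1.87 when counted by reads, where the rRNA tag weighs heavily. The 5 libraries with the highest ratios are also the 5 with the largest 25 to 32 nt shares of reads. How much of the ratio goes with that share was not tested.

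**Figure D1:**
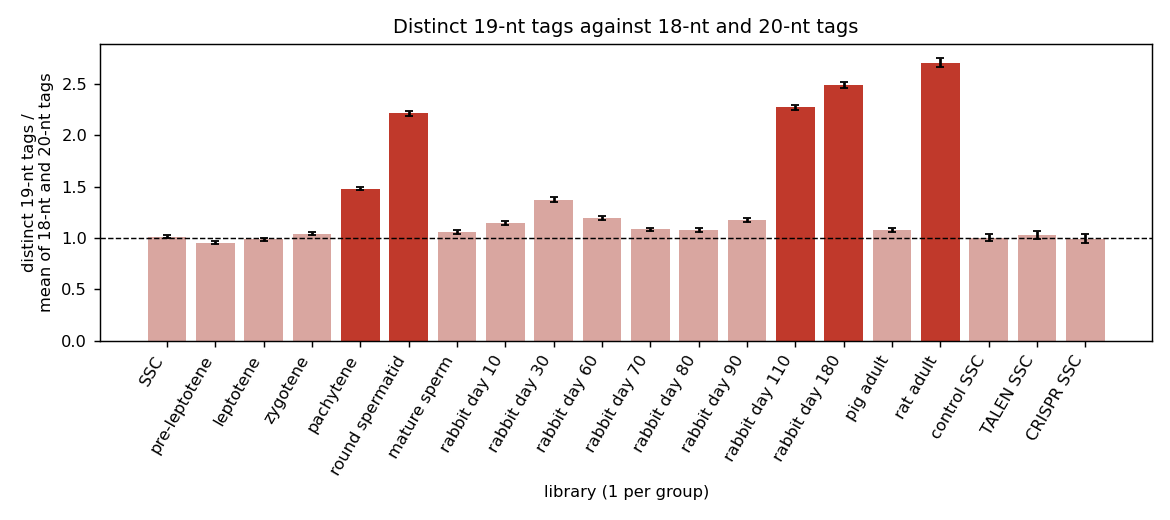
Number of distinct 19-nt tags divided by the mean number of 18-nt and 20-nt tags, in each of the 20 libraries; the dashed line is a ratio of 1, bars start at 0, error bars are 95% intervals for counting error, and dark bars mark the 5 highest libraries. Pachytene spermatocytes (1.48), round spermatids (2.21), rabbit day 110 (2.27), rabbit day 180 (2.49) and rat (2.71) stand above the others.

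As a share of all reads the 19-nt tags had another order of libraries. Among the mouse stages their share went from 1.12% (SSCs) and 1.19% (pre-leptotene) over 1.34% (leptotene) to 1.60% (zygotene), 1.58% (pachytene) and 1.69% (round spermatids), with 1.41% for mature sperm. In rabbit they took 0.610% to 0.781% from day 10 to day 90, 1.80% at day 110 and 1.93% at day 180, and in rat 1.33%. Pig (3.03%) and the SSC lines (2.99% to 5.83%) had higher shares, in which 1 tag weighs heavily: the most-read tag held 15.6% of 19-nt reads in pig. It also held 16.2% in pre-leptotene, 11.4% in leptotene, 10.9% in mature sperm and 14.2% at rabbit day 10. Most tags were rare in rabbit and rat, where 63.7% (day 110) to 78.7% (day 70) of 19-nt tags had a single read, against 29.6% to 50.4% in the 7 mouse stages. Counted by reads, the ratio to the neighbouring lengths fell under 1 in rabbit from day 10 (0.294) to day 90 (0.367), where a single 18-nt tag held 79.0% to 86.0% of 18-nt reads. It stayed at 1.55 in pachytene spermatocytes, 1.80 in round spermatids, 1.39 at rabbit day 110, 1.87 at day 180 and 2.59 in rat.

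Placed on the 25 to 32 nt tags to which they are complementary, 19-nt tags ended opposite guide base 11 more often than at any of the other 17 places examined, in all 20 libraries. In round spermatids 51.9 of 1000 tags of 25 to 32 nt had their bases 11 to 25 complementary to the last 15 bases of a 19-nt tag. With 9 and with 11 bases before the match the rate was 12.2 per 1000. In rat the rate was 51.0 per 1000 at this place, with 11.4 and 11.1 beside it. Rabbit day 180 had 60.4 per 1000 against 20.2 on each side, and pachytene spermatocytes 39.3 against 14.5 with 11 bases before the match. The excess is confined to 1 base position in each of these 4 libraries.

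**Figure D2:**
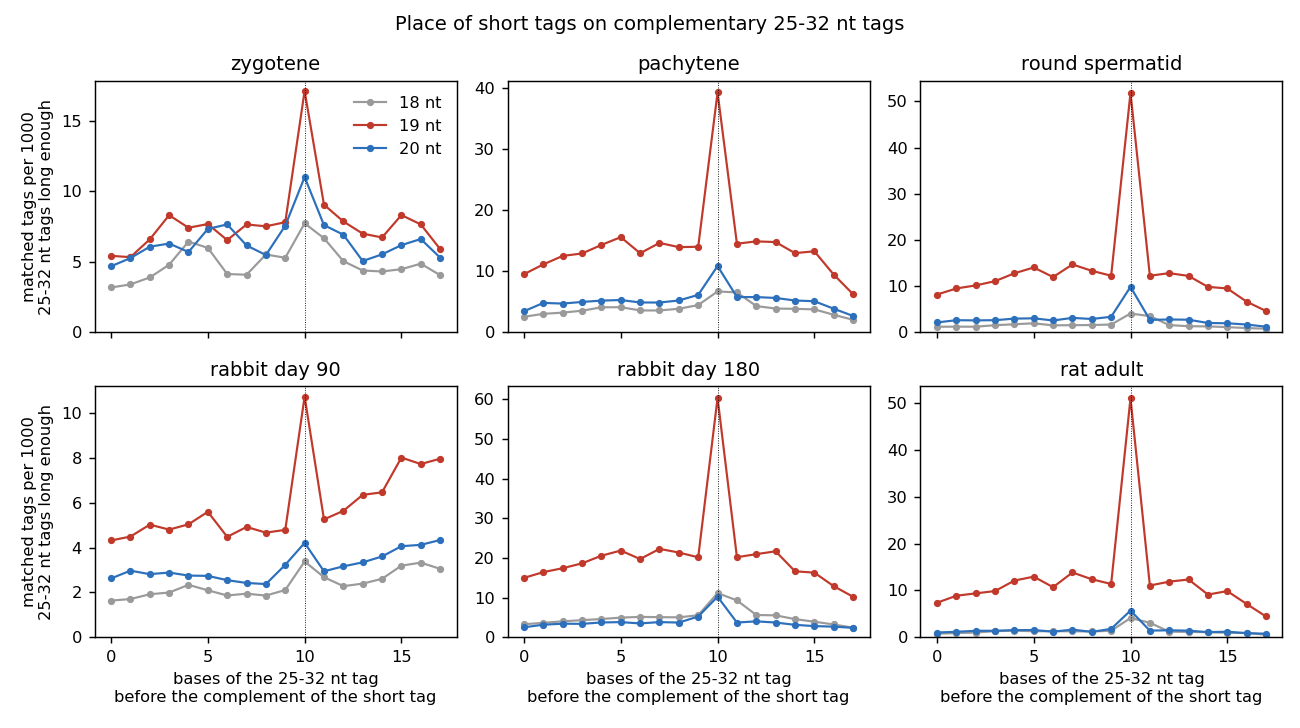
Rate of 25 to 32 nt tags complementary to the last 15 bases of an 18-nt, 19-nt or 20-nt tag (vertical axis, per 1000 tags long enough; scales differ between panels), by the number of bases of the long tag that come before the complement (horizontal axis), in 6 libraries. The 19-nt tags (red) peak at 10 bases, at 39.3 per 1000 in pachytene spermatocytes, 51.9 in round spermatids, 60.4 at rabbit day 180 and 51.0 in rat.

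To compare libraries, the rate with 10 bases before the match was divided by the mean rate with 8, 9, 11 and 12, which gives an antisense position score of 1 where the place has no excess. Among mouse stages SSCs scored 1.64 (interval 1.62 to 1.65), pre-leptotene spermatocytes 1.78 (1.67 to 1.90), leptotene 1.86 (1.79 to 1.92), zygotene 2.13 (2.08 to 2.17), pachytene 2.75 (2.72 to 2.77) and round spermatids 4.12 (4.08 to 4.15). Over distinct tags these 6 values are in the order of the stages, with overlapping intervals for pre-leptotene and leptotene. The order was lost when tags were weighted by reads, with 3.66 for SSCs, 4.38 for pre-leptotene, 5.19 for leptotene, 5.31 for zygotene, 3.87 for pachytene and 5.98 for round spermatids. In libraries thinned to 5000000 reads SSCs (1.79) and pre-leptotene spermatocytes (1.76) changed places. Mature sperm had 3.46 (3.23 to 3.71), from 1582 matched tags against 105733 in round spermatids. Rat had the highest score, 4.37 (4.32 to 4.42), and pig 4.28 (3.99 to 4.60), which overlap. The pig score comes from 1660 matched tags, in a library whose ratio of 19-nt to neighbouring tags was 1.08.

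Rabbit testis scored 2.01 at day 10, 2.46 at day 30, 2.34 at day 60, 2.68 at day 70, 2.11 at day 80, 2.11 at day 90, 2.75 at day 110 and 2.92 at day 180. Day 180 was the highest, while day 110 (2.73 to 2.77) and day 70 (2.60 to 2.75) overlap in their intervals. With tags of at least 2 reads, day 70 (3.53) lay above day 110 (3.49). Control SSCs had 2.35 (2.10 to 2.64), TALEN SSCs 2.06 (1.80 to 2.36) and CRISPR SSCs 1.86 (1.52 to 2.28, from 145 matched tags). By reads they had 3.87, 2.57 and 1.86. With 1 library a line, the lines cannot be compared beyond these values.

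The score depended on the length of the short tag. Tags of 17 nt are shorter than the 18-nt prefixes, so no miRNA or tRNA tags were removed there. Tags of 19 nt had a higher score than tags of 18 nt and than tags of 20 nt in all 20 libraries, and the highest of all lengths from 17 to 24 nt in 18 libraries; the exceptions are the TALEN and CRISPR SSC libraries. At rabbit day 30 (2.46 against 2.45), day 60 (2.34 against 2.29) and day 80 (2.11 against 2.08) the values at 19 and 17 nt overlap in their intervals, as they also do at rabbit day 10 and in control SSCs. In round spermatids the score was 3.16 at 17 nt, 1.98 at 18 nt, 4.12 at 19 nt, 3.42 at 20 nt, 2.44 at 21 nt and 1.96 at 24 nt. Rat followed the same course, with 3.49, 2.37, 4.37, 3.89, 3.05 and 2.28. In pachytene spermatocytes 17-nt tags scored 1.94, 19-nt tags 2.75 and 20-nt tags 1.91, with 18-nt tags below all 3. Tags of 18 nt also had an excess one base further along: with 11 bases before the match, measured against 8, 9, 12 and 13, 18-nt tags had 2.35 in round spermatids, 2.49 in rat, 1.71 at rabbit day 180 and 1.59 in pachytene spermatocytes. For 19-nt tags that value lay between 0.921 and 1.01 in the same 4 libraries. An 18-nt tag with 11 bases before the match has its last base opposite guide base 12 and its first base opposite base 29, so it covers the 19-nt place less its last base.

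**Figure D3:**
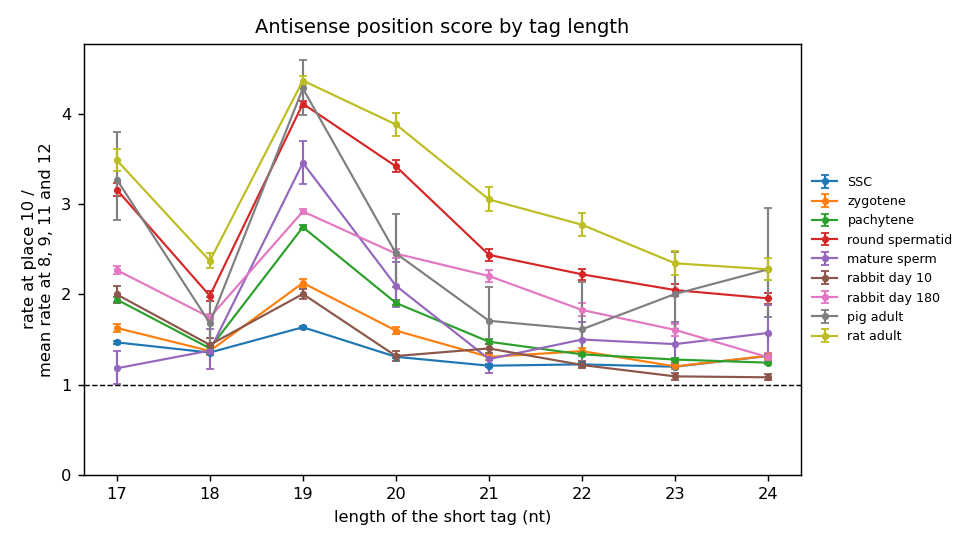
Antisense position score (vertical axis, rate with 10 bases before the match over the mean rate with 8, 9, 11 and 12; the dashed line is 1) by length of the short tag in nt, in 9 libraries; error bars are 95% intervals for counting error. Each of these libraries is highest at 19 nt, from 1.64 in SSCs to 4.37 in rat, and all but mature sperm are lower at 18 nt than at 17 and 19 nt.

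The 25 to 32 nt tags that lay opposite began with T more often than tags matched beside the place. Of those matched with 10 bases before, 91.7% (interval 91.6% to 91.9%) began with T in round spermatids, against 77.5% (77.2% to 77.8%) of those matched at the 4 places beside it and 81.5% of all 25 to 32 nt tags. The same 3 shares were 83.8%, 68.2% and 77.6% in pachytene spermatocytes, 84.1%, 67.7% and 73.7% at rabbit day 180, and 88.6%, 77.8% and 79.9% in rat. In pig they were 95%, 81.2% and 69.2%, and in mature sperm 88.4%, 67.0% and 59.8%. SSCs were an exception to the comparison with all tags, with 74.9% T at the place, 64.9% beside it and 76.2% of all. T was more frequent at the place than beside it in all 20 libraries, by 9.98 percentage points (SSC) to 21.4 (mature sperm). In reads per tag the libraries differed. Round spermatids had 17.7 reads per opposite tag, against 11.4 for tags matched beside and 9.66 for all. Rabbit day 180 had 16.9, 8.68 and 5.70 reads per tag. The order turned in mature sperm, with 13.5 reads per opposite tag against 38.9 for all, in pre-leptotene spermatocytes, with 8.58 against 9.42, and in TALEN SSCs, with 3.95 against 4.56 for tags matched beside. Pairing over all 19 bases, where the long tag reached far enough, differed between libraries. It was more frequent at the place than beside it in each mouse stage, pig, rat, TALEN SSCs and CRISPR SSCs. The shares of matches were 75.9% against 67.0% in pig, 79.1% against 70.8% in mature sperm and 76.8% against 71.9% in pachytene spermatocytes. Smaller differences were 79.2% against 76.2% in round spermatids, 81.3% against 79.5% in rat and 59.0% against 57.7% in SSCs. It was less frequent at the place in each rabbit library, with 76.7% against 78.9% at day 180, and in control SSCs.

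A in base 10, the mark of piRNAs made by slicing, was most frequent in opposite tags of SSCs and early spermatocytes among the mouse stages. It stood at 50.8% in SSCs, against 42.0% of tags matched beside and 30.3% of all, and at 52.5%, 38.6% and 30.6% in leptotene and 52.3%, 42.6% and 31.3% in zygotene spermatocytes. Pachytene spermatocytes had 44.2% at the place against 43.3% beside it. Round spermatids had 33.2%, 31.9% and 31%, and rat 31.6%, 30.3% and 30.4%. Rabbit testis had 54.4%, 45.1% and 34.6% at day 90, and 37.7%, 36.0% and 30.6% at day 180. Control SSCs had 55.2% at the place and 33.2% beside it, and TALEN SSCs 53.5% and 32.7%. CRISPR SSCs had 30.3% at the place, from 145 matched tags, and 32.6% beside it.

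Counted from the short tags, 22.4% (interval 22.1% to 22.7%) of distinct 19-nt tags of pachytene spermatocytes had an opposite tag, against a mean of 13.0% at the 4 places beside. Round spermatids had 26% (25.7% to 26.3%) against 10.8%, rabbit day 110 31.1% against 15.9%, rabbit day 180 32.1% against 15.5%, and rat 35.0% (34.5% to 35.5%) against 13.3%. In these 5 libraries tags with an opposite tag took 36.6%, 38.1%, 49.4%, 52% and 50.4% of 19-nt reads. At the places beside, the mean shares of reads were 22.0%, 14.3%, 25.7%, 24.9% and 18.7%. By reads there was no excess at rabbit day 10 (7.55% against 8.16% beside) and day 70 (5.05% against 5.13%). Earlier mouse stages had few distinct tags of this kind, with 2.09% in pre-leptotene, 4.16% in leptotene and 7.94% in zygotene spermatocytes. SSCs had 13.0% against 9.89% beside. Mature sperm had 2.59% against 0.855%, and pig 3.56% against 0.998%. A library with more 25 to 32 nt tags offers more partners at each of these places alike.

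A second relation was sequence in common. Of distinct 19-nt tags, 43.8% in pachytene spermatocytes and 24.9% in round spermatids were the first 19 bases of a 25 to 32 nt tag, with 32.4% in SSCs, 22.0% in rat, 25.0% at rabbit day 180 and 10.6% in pig. By reads the shares were 66.0%, 50.3%, 67.6%, 25.4%, 37.8% and 64.3%. In round spermatids tags of 18 and 20 nt were the first part of longer tags more often, at 44.6% and 43.7%, and in rat at 44.9% and 50.3%. The 2 relations met in few tags of the late stages: of tags with an opposite tag, 10.9% in round spermatids and 8.28% in rat were also a first part, against 33.1% in pachytene spermatocytes and 58.8% in SSCs.

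Some longer tags that begin with a 19-nt tag go on with bases that also start the sequencing adapter. In round spermatids, 14 of the 19 longer tags that begin with the most-read 19-nt tag, and all 9 that begin with the tag of 4285 reads, go on with TGGAA, the first bases of the Illumina small RNA 3′ adapter. Over all 19-nt tags, 1.68% of the longer tags that begin with one go on this way in round spermatids, 1.35% in pachytene spermatocytes, 1.82% in rat and 3.69% in pig, against 0.225%, 0.254%, 0.237% and 0.272% of all 25 to 32 nt tags at the same place. Tags of 18 and 20 nt had it too, at 1.85% and 1.61% in round spermatids and 1.37% and 1.13% in pachytene spermatocytes. Rat had 1.68% and 1.15%, and pig 3.67% and 3.77%. In round spermatids, tags with any such longer tag took 53.9% of first-part reads at 18 nt, 41.8% at 19 nt and 60.3% at 20 nt. For 19-nt tags, leaving out such longer tags made a small difference by number of short tags. Round spermatids then had a first-part share of 24.1%, pachytene spermatocytes 42.9% and pig 9.88%. By reads it went from 50.3% to 38.9% in round spermatids, from 66.0% to 60.6% in pachytene spermatocytes and from 64.3% to 38.5% in pig. These counts by TGGAA were chosen after the values were seen. TGGAA can also be sequence of the RNA itself, as in the following tag of Gm48009 below, which was placed on a transcript. Adapter and RNA sequence were not told apart in these counts.

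The 2 kinds of tag differed in base make-up. Tags that were only a first part began with T in 79.3% of cases in pachytene spermatocytes, 81.9% in round spermatids, 71.6% at rabbit day 180 and 83.5% in rat. By definition such a tag has the first base of a longer tag. In the same order, 77.6%, 81.5%, 73.7% and 79.9% of all 25 to 32 nt tags began with T. Tags that had only an opposite tag began with T in 23.2%, 25.5%, 23.2% and 24.6%. In round spermatids the intervals were 81.3% to 82.5% and 24.8% to 26.2%. In round spermatids the opposite-only tags began with A in 28.1%, C in 29.1% and G in 17.4% of cases. Tags with neither relation stood between, with 38.2% T in round spermatids and 29.8% in rat. Over all 19-nt tags T came first in 45.2% of tags in round spermatids, under the 65.5% of 18-nt and 68.7% of 20-nt tags. Rat had 39.0% T at 19 nt, 57.7% at 18 nt and 67.4% at 20 nt. Before pachytene the contrast was smaller or absent: in pre-leptotene spermatocytes first-part tags had 35.1% T and opposite-only tags 43.1%, the latter from 197 tags with an interval of 36.1% to 50.4%.

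At the 3′ end, G was rare in 19-nt tags. As last base G had 12.2% of tags in round spermatids, 11.5% in pachytene spermatocytes, 12.3% at rabbit day 180 and 13.2% in rat. In the opposite-only tags of round spermatids, whose last base lies opposite guide base 11, it had 12.6%, with 34.8% C, 28.9% T and 23.7% A. In the same library G made 24.3% of base 19 in 20-nt tags, where it is not the last base, and 12.5% of the last base of 18-nt tags.

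**Figure D4:**
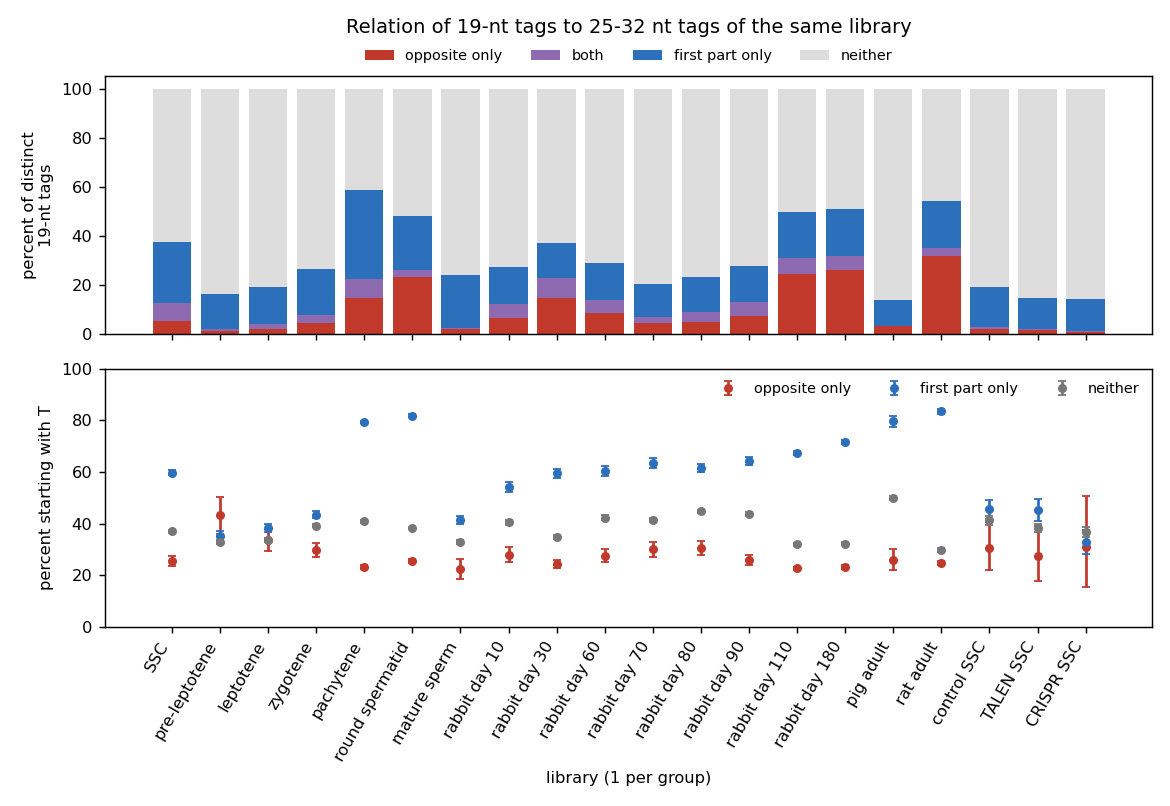
Upper panel: percent of distinct 19-nt tags with only an opposite 25 to 32 nt tag, with only a longer tag that begins with them (first part), with both or with neither, in each library. Lower panel: percent beginning with T in 3 of these classes, with 95% intervals for counting error; in round spermatids the opposite-only tags have 25.5% and the first-part-only tags 81.9%.

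Opposite and adjoining tags could be placed on mouse transcripts. Of 67844 tags of round spermatids 11582 matched exons of exactly 1 gene of GENCODE vM21 (build GRCm38) without mismatch, on either strand, and of 67554 tags of pachytene spermatocytes 10088. In round spermatids 6316 pairs of a 19-nt tag and a 25 to 32 nt tag on the other strand overlapped at their 5′ ends by 29 bases, 3.81 times (interval 3.68 to 3.94) the mean of the 4 nearest overlaps. Pachytene spermatocytes had 2982 such pairs and a ratio of 2.68 (2.56 to 2.81). On the same strand, 25 to 32 nt tags began directly after the 19-nt tag, 19 bases from its first base, in 3287 pairs in round spermatids and 5488 in pachytene spermatocytes. These are 1.90 (1.83 to 1.98) and 1.44 (1.39 to 1.48) times the mean of distances 17, 18, 20 and 21. Distance 18 was also high, with 2402 and 5111 pairs, and is part of that mean. The adjoining ratio was also above 1 in SSCs, at 1.70 (1.63 to 1.77), in leptotene, at 1.59 (1.34 to 1.89), and in zygotene spermatocytes, at 1.47 (1.34 to 1.60). Pre-leptotene spermatocytes had 1.14 (0.896 to 1.44). From few pairs, control SSCs had 2.74 (1.94 to 3.87), TALEN SSCs 2.26 (1.45 to 3.47) and CRISPR SSCs 1.47 (0.920 to 2.30). Mature sperm had 1.06 (0.970 to 1.16), so no excess of adjoining tags was detectable there, with 8.34 (5.83 to 12.1) for the other strand from 98 pairs.

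**Figure D5:**
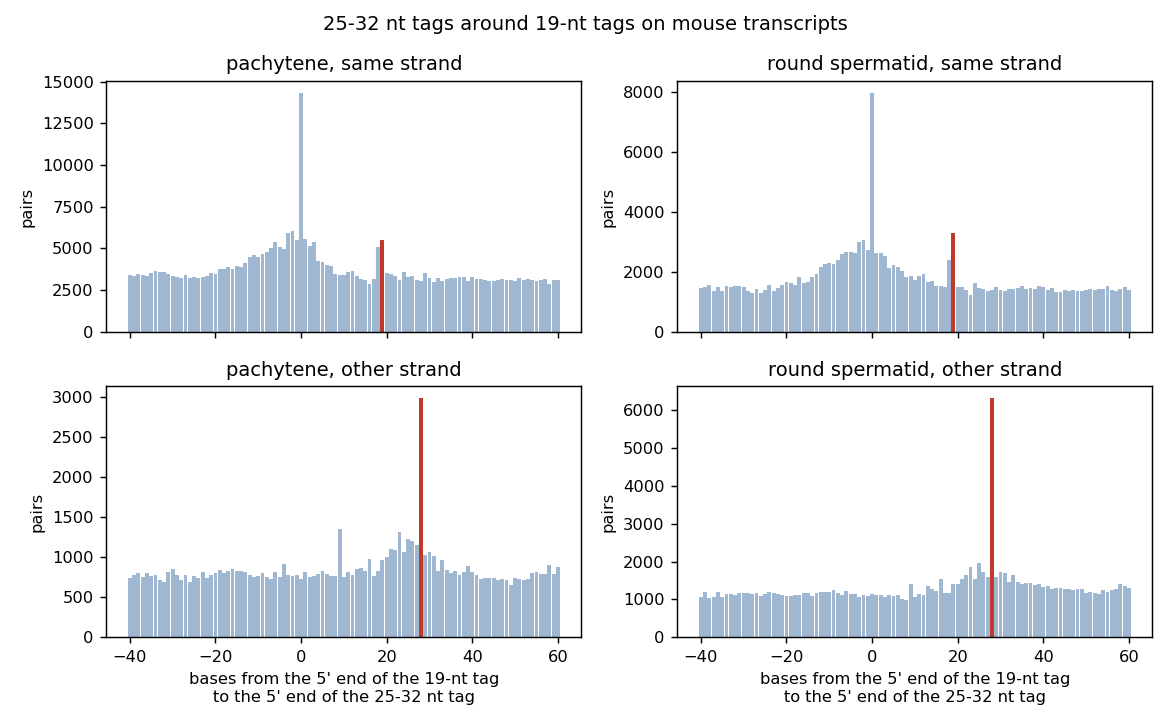
Pairs of a 19-nt tag and a 25 to 32 nt tag placed on mouse transcripts (vertical axis, number of pairs), by the bases from the 5′ end of the 19-nt tag to that of the other tag (horizontal axis), on the same strand (upper row, red at 19) and the other strand (lower row, red at 28, a 29-base overlap). The red bars hold 5488 and 3287 pairs on the same strand, and 2982 and 6316 on the other, in pachytene spermatocytes and round spermatids.

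The highest bar on the same strand, at distance 0, holds tags that share a 5′ end, 14315 pairs in pachytene spermatocytes and 7951 in round spermatids. Of 19-nt tags in 1 gene with an opposite tag, 54.8% in pachytene spermatocytes (507 of 925) also had an adjoining tag, against 14.9% of those without an opposite tag. In round spermatids the shares were 23.7% (535 of 2258) and 10.5%. How far these shares follow the number of 25 to 32 nt tags per gene was not tested.

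Examples with both partners, the 3 with most reads in each of these 2 stages among tags with a single genomic place, are shown next. Genes of 1 chromosome were left out and are not reported here. The strand given is that of the 19-nt tag on the genome, build GRCm38. The capital of the 19-nt tag is its last base, capitals of the opposite tag are the bases from 11 on that pair with it, and capitals of the following tag are its first 10 bases, which pair with the first 10 of the opposite tag. In round spermatids the first lies at chr13:49892000-49892018 on the plus strand, antisense to the processed pseudogene Gm48009. It was read 3410 times, its opposite tag 1 time and its following tag 28 times. This following tag begins with TGGAA, so a longer tag running on along this transcript would fall under the TGGAA counts above.
Gm48009 19-nt tag: ttggaatggcgttcactcA
Gm48009 opposite tag: tgtgattccaTGAGTGAACGCCATTCC
Gm48009 following tag: TGGAATCACAgatgactgaggaggtattg
The second lies in the coding sequence of Stox1, a gene for a DNA-binding protein, at chr10:62665718-62665736 on the minus strand and in sense. Its reads numbered 471, with 2 for the opposite and 5 for the following tag.
Stox1 19-nt tag: cccccgagatgtggaacaT
Stox1 opposite tag: tgattagcgcATGTTCCACATCTCGGG
Stox1 following tag: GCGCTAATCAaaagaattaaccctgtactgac
The third lies in an exon of the noncoding gene CT025671.4, at chr17:66194583-66194601 on the plus strand, with 301 reads, 216 for the opposite tag and 2 for the following tag.
CT025671.4 19-nt tag: cccaggattttttcataaC
CT025671.4 opposite tag: tattttcaaaGTTATGAAAAAATCCTGGGc
CT025671.4 following tag: TTTGAAAATAaggcagagtggtacagg
The 3 short tags, also chosen for their high reads, differ in how these compare with reads of the opposite tag, from 3410 against 1 to 301 against 216.

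In pachytene spermatocytes all 3 lie in sense in exons of noncoding genes. The first, with 107 reads, lies at chr17:27341459-27341477 on the plus strand in Gm10505, a processed transcript; its opposite tag had 1 read and its following tag 4.
Gm10505 19-nt tag: tctgttgctgagatgaaaC
Gm10505 opposite tag: tggtcatggcGTTTCATCTCAGCAAC
Gm10505 following tag: GCCATGACCAagaagcaagttgaggagga
The second, with 92 reads, lies at chr13:50570395-50570413 on the plus strand in the unprocessed pseudogene Gm20789; its opposite tag had 6 reads and its following tag 2.
Gm20789 19-nt tag: agagagcctgtgaacaacA
Gm20789 opposite tag: ttgctttggaTGTTGTTCACAGGCTCTCT
Gm20789 following tag: TCCAAAGCAAgtgaagaaagaaatgggc
The third, with 61 reads, lies at chr10:86603648-86603666 on the plus strand in the processed pseudogene Gm48465; its opposite tag had 4 reads and its following tag 14.
Gm48465 19-nt tag: acctgaaaaagaacaaatA
Gm48465 opposite tag: tattttgccaTATTTGTTCTTTTTCAGGTa
Gm48465 following tag: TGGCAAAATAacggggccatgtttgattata
All 6 opposite tags of both stages begin with T, and 5 of the 6 short tags are also the first part of a longer tag; the one in Stox1 is not.

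Tags with only an opposite tag lay antisense to genes more often than first-part tags did. In round spermatids, of opposite-only tags in 1 gene, 32.1% lay antisense to long noncoding genes, 23.1% antisense to protein-coding genes, 18.2% in long noncoding genes in sense, 13.5% in protein-coding genes in sense and 11.4% in sense in pseudogenes or other genes. First-part-only tags lay in sense in 82.2% of cases, with 46.3% in long noncoding and 31.3% in protein-coding genes. All 25 to 32 nt tags lay in sense in 89.1%, against 43.6% of the opposite-only tags. In pachytene spermatocytes the sense share was 48.9% of opposite-only tags, 82.6% of first-part-only tags and 87.7% of 25 to 32 nt tags. Among the host genes with most opposite-paired tags in round spermatids were the noncoding CT025671.4 (189 tags in sense), Gm21269 (134 antisense), Gm42811 (112 in sense), and Ago2, the gene of an Argonaute slicer (104 antisense). They were followed by 4930444F02Rik (101 antisense) and Stox1 (94 in sense). In pachytene spermatocytes, among others, Gm21269 held 116 antisense and 105 in sense, and Gm10505 65 in sense and 39 antisense.

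The shared part of the sequences depended on the pair of libraries and on the size of each list. Pachytene spermatocytes and round spermatids had 15145 19-nt tags in common, 22.4% of the first and 22.3% of the second, and among tags with an opposite tag 3957, which are 26.2% and 22.4%. Of the 530 tags with an opposite tag in mature sperm, 354 (66.8%) were tags with an opposite tag in round spermatids, where they make 2.01%; of all 19-nt tags of mature sperm 15.0% were in round spermatids. Rabbit day 110 and day 180 shared 19623 tags (28.6% and 35.5%) and 8171 with an opposite tag (38.3% and 46.0%). Rat and round spermatids of mouse shared 931 tags (2.68% and 1.37%), of which 222 had an opposite tag in both (1.83% and 1.26% of such tags). In short mouse lists a larger part of the opposite-paired tags was found in rat. Pre-leptotene spermatocytes had 35 of 335 (10.4%) and control SSCs 19 of 132 (14.4%). TALEN SSCs had 16 of 90 (17.8%) and CRISPR SSCs 4 of 42 (9.52%). Of all 19-nt tags in these libraries, in the same order, 2.423%, 7.138%, 6.204% and 7.304% were found in rat. In the SSC lines much of the overlap was thus also present among all 19-nt tags. Within mouse, SSCs and round spermatids shared 754 opposite-paired tags, 14.1% and 4.27%, and 2780 of all 19-nt tags, 6.74% and 4.10%. Between round spermatids and rabbit day 180, 15 tags with an opposite tag were in common (0.0850% and 0.0845%), against 475 of all 19-nt tags (0.700% and 0.859%). Rat and rabbit day 180 had 5 in common (0.0411% and 0.0282%), against 379 of all (1.09% and 0.685%). Rat and pig had 0 of 12156 and 542 in common, against 217 of all (0.625% and 1.43%).

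Over the 8 rabbit ages none of 4 measures passed the test of a trend over distinct tags. The score had a Spearman's rho of 0.62 with age (exact permutation p = 0.115, adjusted p = 0.342 by Benjamini-Hochberg over 4 measures, n = 8) and Pearson's r of 0.68 (exact permutation p = 0.0581). Without day 10 and day 180, the 2 ages farthest from the median, r was 0.09. The first-part share had rho 0.26 and r 0.45 (exact permutation p = 0.536 and 0.264, adjusted p = 0.715), the share with T first rho -0.07 and r -0.28 (exact permutation p = 0.882 and 0.522, adjusted p = 0.882), and the share with A in base 10 rho -0.55 and r -0.72 (exact permutation p = 0.171 and 0.0418, adjusted p = 0.342). Without the 2 farthest ages r was 0.19 for the first part, 0.09 for T first and -0.83 for A in base 10.

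By reads, the first-part share was lower at each later age. It was 55.7% at day 10, 51.9% at day 30, 51.2% at day 60, 48.7% at day 70, 48.4% at day 80, 44.6% at day 90, 42.2% at day 110 and 37.8% at day 180, with rho -1 and r -0.97 (exact permutation p = 4.96e-05 and 2.48e-05, adjusted p = 1.98e-04 for rho over 4 measures, n = 8). The p of rho is the smallest that the two-sided test of rho over all orders of 8 ages can give. Without day 10 and day 180 r was -0.93 (exact permutation p = 0.00556). Without longer tags that go on with TGGAA, rho was again -1 and r -0.97, from 53.6% to 36.7%. The strict order rested on few tags: the 5 most-read 19-nt tags held 27.1% of 19-nt reads at day 10 and 4.85% at day 180. Without the 5 most-read tags of each library, an alternative chosen after the values were seen, the share was 40.9% at day 10, 41.5% at day 30, 40.6% at day 60, 36.5% at days 70 and 80, 36.1% at day 90, 39.5% at day 110 and 35.8% at day 180. Then rho was -0.83 and r -0.69 (exact permutation p = 0.0154 and 0.0495, n = 8), and r was -0.52 without day 10 and day 180 (exact permutation p = 0.299). Over the same ages the share of reads of 25 to 32 nt went from 22.9% at day 10 to 76.8% at day 180, and miR-449a-5p from 0.00216% to 0.960% of miRNA reads. Each age is 1 library of whole testis, in which a change in the make-up of cells and a change within cells cannot be told apart.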

How the data were processed

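Small RNA of 20 libraries was sequenced from total RNA on an Illumina instrument, per the labels' protocols. The authors deposited, for each library, distinct read sequences with their counts of reads, not normalised; trimming and length limits are not given in the sources used here. Bowtie is named, without a role, in the submitters' processing notes, with the builds Sscrofa10.2, GRCm38, OryCun2.0 and Rnor_6.0.

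The 19-nt tags were taken from each list after removal of tags that begin with 1 of 1660 prefixes of 18 nt of mouse mature miRNAs (RefSeq, GRCm38.p6) or 1 of 8 tRNA prefixes written from knowledge; miRNAs missing from that table, other species' miRNAs, rRNA and other tRNA remain. Tags of 18 and 20 nt were treated alike. Complements were matched without mismatch over the last 15 bases, with no genome. A genome sequence was not used, so in mouse the positions come from 141767 GENCODE vM21 transcripts, which leave out introns and sequence between genes; the tags placed are those in exons of 1 gene. A tag and its 1-base variants count as separate tags, and repeats give many pairs at once.

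Tags printed are the 5 most-read of pachytene, round spermatid, zygotene, rat and rabbit day 180 libraries, except those of miR-143 and 5 others (3 of zygotene, 2 of rabbit day 180), which are not reported here, and the 3 most-read with both partners in each of 2 stages. Those with both partners were taken from tags with a single genomic place, without 1 chromosome that is not reported here. Shares have Clopper-Pearson 95% intervals, and ratios were given intervals through the share of the numerator. With 1 library a group no test compares groups. Rabbit ages were tested by exact permutation over all orders. Alternatives were weighting by reads, at least 2 reads, no removal of miRNA and tRNA tags, matching all 19 bases, thinning to 5000000 reads, leaving out TGGAA tags and leaving out the 5 most-read tags; the last 3 were chosen after seeing the data. The 19-nt tags, lists and tests were chosen with earlier results of these data known. Measures were tested on simulated data. Python 3.11.15, NumPy 2.4.6 and SciPy 1.17.1 were used.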

Additional observations from a re-analysis of the deposited data

How the results depend on the processing

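Each group holds 1 library, so leaving out a replicate was not run. No paired analysis was possible because no group has a replicate. The antisense position score was above 1 in every library under each alternative run. Weighted by reads, the ratio of 19-nt tags to their neighbours went from above 1 to below 1 in SSCs (0.901), zygotene spermatocytes (0.970), mature sperm (0.707), rabbit day 10 (0.294), 30 (0.403), 60 (0.320), 70 (0.313), 80 (0.338) and 90 (0.367) and pig (0.329); the cause was not tested. The following values moved beyond the counting interval and kept their direction, and the cause was not tested. In pachytene spermatocytes, round spermatids, rabbit day 180 and rat, in that order, the ratio was 1.55, 1.80, 1.87 and 2.59 by reads, 1.53, 2.35, 3.43 and 4.19 with at least 2 reads, and 1.54, 2.36, 2.67 and 2.76 in libraries thinned to 5000000 reads. The score in the same order was 3.87, 5.98, 4.02 and 7.26 by reads, 2.95, 4.40, 3.78 and 6.32 with at least 2 reads, 3.45, 4.74, 3.28 and 4.97 with all 19 bases matched, and 3.01, 4.66, 3.19 and 4.46 after thinning. The first-part share was 66.0%, 50.3%, 37.8% and 25.4% by reads, and 40.7%, 21.6%, 21.9% and 21.2% after thinning. With at least 2 reads it was 46.1%, 19% and 14.8% in pachytene, rabbit day 180 and rat, and without TGGAA tags 42.9%, 24.1% and 21.5% in pachytene, round spermatids and rat. The adjoining ratio was 1.94 and 5.56 by reads and 1.56 and 2.19 with at least 2 reads, in pachytene spermatocytes and round spermatids. Over the rabbit ages the sign of rho turned for the first-part share by reads (-1, or -0.83 without the 5 most-read tags of each library) and with at least 2 reads (-0.52), and for A in base 10 by reads (0.67); the cause was not tested. Thinning, the TGGAA alternative and the one without the most-read tags were chosen after seeing the data. Thinning was possible in 17 libraries.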
